A study of Drosophila melanogaster with 35 samples.

Results

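Among the DMAD binding sites mapped in BG3C2 cells were peaks that lay on Polycomb (Pc) chromatin but away from Wds. A DMAD peak on 1 of the 6 main chromosome arms was counted when it overlapped a Pc region by at least 1 bp and no Wds region, and 1791 of 5092 DMAD peaks met this rule. Of the remaining DMAD peaks, 1414 overlapped both Pc and Wds, 665 overlapped Wds only and 1222 overlapped neither. These are set beside the 1791 Pc-without-Wds peaks below, as are 3707 Pc regions that overlapped no DMAD peak.

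DMAD, encoded by CG43444 (earlier CG2083), is the fly protein of the Tet family and is known as a demethylase of N6-methyladenine (6mA) in DNA. Pc is the chromodomain subunit of Polycomb repressive complex 1, which binds nucleosomes trimethylated on lysine 27 of histone H3 and keeps developmental genes silent. Wds is the fly WDR5, a core subunit of the complexes that methylate lysine 4 of histone H3, and H3K4me3, the trimethylated form, marks the starts of active genes. H3K27ac marks active promoters and enhancers, and RNA polymerase II (Pol II) can be found at genes that are transcribed or paused.

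The samples were Drosophila melanogaster BG3C2 cells, labelled as neuronal, treated with dsRNA against CG2083 and labelled as a DMAD knockdown, or labelled wild type, and brains labelled DMAD knockout or wild type; the labels used here give no age, allele or sex for the brains. There were 3 knockdown and 3 control libraries for 6mA immunoprecipitation (in each group 2 of them are numbered as parts of replicate 1), 2 and 2 for Pc ChIP, 1 and 1 for Wds ChIP, 1 and 1 for H3K4me3 ChIP, and 3 and 3 for RNA in BG3C2 cells. Wild-type cells gave 3 DMAD ChIP libraries, and brains gave 1 knockout and 1 control library for 6mA and 2 and 2 for RNA. Lists of H3K27ac and Pol II peaks were analysed as well. No sample record in the labels used here covers these, and the Pol II control list names BG3C3 as the cell line.

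There is 1 region list for each group, and for each gene 1 expression value in each group. The spread between replicates therefore cannot be computed. Shares carry 95% Wilson intervals and differences between shares 95% Newcombe intervals, which cover counting error only and treat neighbouring peaks as independent. Sequencing depth is unknown. Which of the knockdown and control libraries entered the Pc and Wds lists is not given, and the DMAD list came from wild-type cells alone. In the authors' deposited table, CG43444 was at 34.9 FPKM in knockdown cells and 65.9 FPKM in control cells, a log2 fold change of -0.91 that was not called (p = 0.0058, q = 0.706). In the authors' deposited table for brain it was at 40.4 FPKM in knockout brains and 39.8 FPKM in control brains, so its RNA level was not lower in the brains labelled knockout. Only 2 of 10 neuron markers reached 1 FPKM in control BG3C2 cells in the authors' deposited table (elav at 12.2 and Syx1A at 24.1 FPKM), against 4 of 5 glia markers and 4 of 5 haemocyte markers.

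The Pc-without-Wds peaks were a median of 1969 bp wide (quartiles 1515 and 2717, range 756 to 13456 bp). They were narrower than the DMAD peaks with Pc and Wds, whose median was 2705 bp, about as wide as those with Wds only (1985 bp) and wider than those with neither (1734 bp). Pc covered a median of 76.5% of a peak's length, and 1468 of the 1791 peaks were covered by Pc over 50% or more. At the edges of the rule, 6 peaks were included through 100 bp or less of Pc, 16 peaks with neither protein had a Pc region within 100 bp, and 27 peaks with Pc were excluded through 100 bp or less of Wds. The nearest Wds region lay a median of 7594 bp away, and 209 peaks had one within 1000 bp.

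The peaks were unevenly spread over the genome. They covered 4167646 bases, 3.47% of the main arms, and neighbouring peaks lay a median of 9238 bp apart, with 691 peaks (38.6%) within 5 kb of another. Arm 2R carried 476 peaks, or 22.5 per Mb, and arm X carried 97, or 4.33 per Mb, against 14.9 per Mb over all arms. The X thus held 5.42% of the Pc-without-Wds peaks and 18.6% of the arms' length. Its share was 7.07% of DMAD peaks with Pc and Wds, 13.5% of those with Wds only, 9.9% of those with neither and 7.31% of Pc regions without DMAD.

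Most of these peaks lay in genes. A gene locus of the RNA table covered at least part of 1737 peaks (97.0%), but only 1011 (56.5%) lay within 1000 bp of either end of a locus, against 77.4% of DMAD peaks with Pc and Wds, 51.3% with Wds only and 46.8% with neither. The loci carry no strand, so starts and ends of genes could not be separated. The widest peak, X:2140015-2153470 (13456 bp), spanned fs(1)K10, whose product acts in oocyte polarity, crn, a splicing factor gene, Or2a, an odorant receptor gene, and 3 genes known by CG numbers. The 5 widest also included peaks over mei-41 (X:16285556-16297570), the fly ATR kinase gene, pcx (X:2119119-2131008), which acts in Notch signalling, ACXD (3L:2238772-2249290), an adenylyl cyclase gene, and Rac1 (3L:1294484-1304982), a small GTPase gene.

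Despite lying on Pc chromatin, most Pc-without-Wds peaks carried marks of active chromatin. In control cells 1156 of 1791 (64.5%) overlapped an H3K27ac peak, 1287 (71.9%) a Pol II peak and 781 (43.6%) an H3K4me3 peak. All 3 were present at 616 peaks (34.4%), H3K27ac and Pol II without H3K4me3 at 346 (19.3%), Pol II alone at 271 (15.1%) and none of the 3 at another 271 (15.1%). H3K27ac alone was present at 122, H3K4me3 with H3K27ac at 72, H3K4me3 with Pol II at 54 and H3K4me3 alone at 39. All 3 marks together were thus the commonest state, and a smaller group had Pol II with neither histone mark.

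These control shares placed the Pc-without-Wds peaks between the other classes. H3K4me3 was less frequent at them than at DMAD peaks with Pc and Wds (80.8%), by a difference of -37.2 percentage points (interval -40.2 to -34.1), and than at those with Wds only (55.0%), by -11.4 points (-15.8 to -6.99). It was 14.1 points more frequent than at DMAD peaks with neither protein (29.5%; 10.6 to 17.5) and 30.9 points more frequent than at Pc regions without DMAD (12.7%; 28.4 to 33.4). Pol II was 9.0 points more frequent than at DMAD peaks with Wds only (62.9%; 4.83 to 13.3), although these more often had H3K4me3. For H3K27ac the share differed by 0.31 points from that of peaks with neither protein (64.2%; -3.16 to 3.8), an interval that includes 0. Pc regions without DMAD had H3K27ac at 21.3% and Pol II at 19.6%, far below the peaks with both Pc and DMAD.

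**Figure D1:**
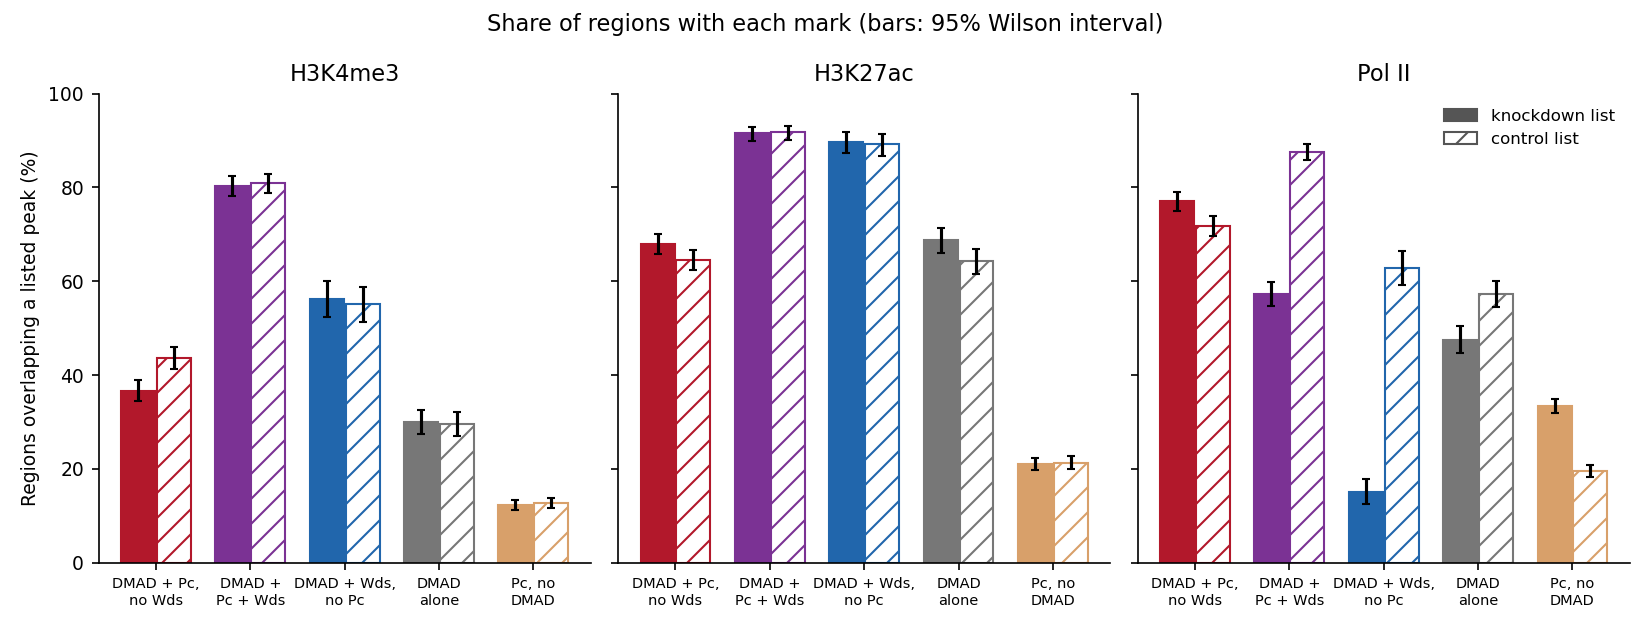
Percent of regions of each class (4 DMAD peak classes and Pc regions without DMAD) that overlap an H3K4me3, H3K27ac or Pol II peak in the knockdown and control lists of BG3C2 cells; bars start at 0 and error bars are 95% Wilson intervals. At the Pc-without-Wds peaks the H3K4me3 share was 36.6% in knockdown and 43.6% in control cells, and the Pol II share was 77.1% in knockdown and 71.9% in control cells.

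The marks were centred on the peaks. At the middle base, Pc covered 86.9% of peaks, H3K27ac 62.4% in knockdown and 58.3% in control cells, Pol II 73.5% in knockdown and 68.1% in control cells, and H3K4me3 31.2% in knockdown and 37.3% in control cells. At 5 kb to the left, H3K27ac covered 28.1% in knockdown and 26.7% in control cells, Pol II 26.0% in knockdown and 25.1% in control cells, and H3K4me3 17.8% in knockdown and 17.3% in control cells. The differences between knockdown and control lists were thus smaller at that distance than at the middle base.

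**Figure D2:**
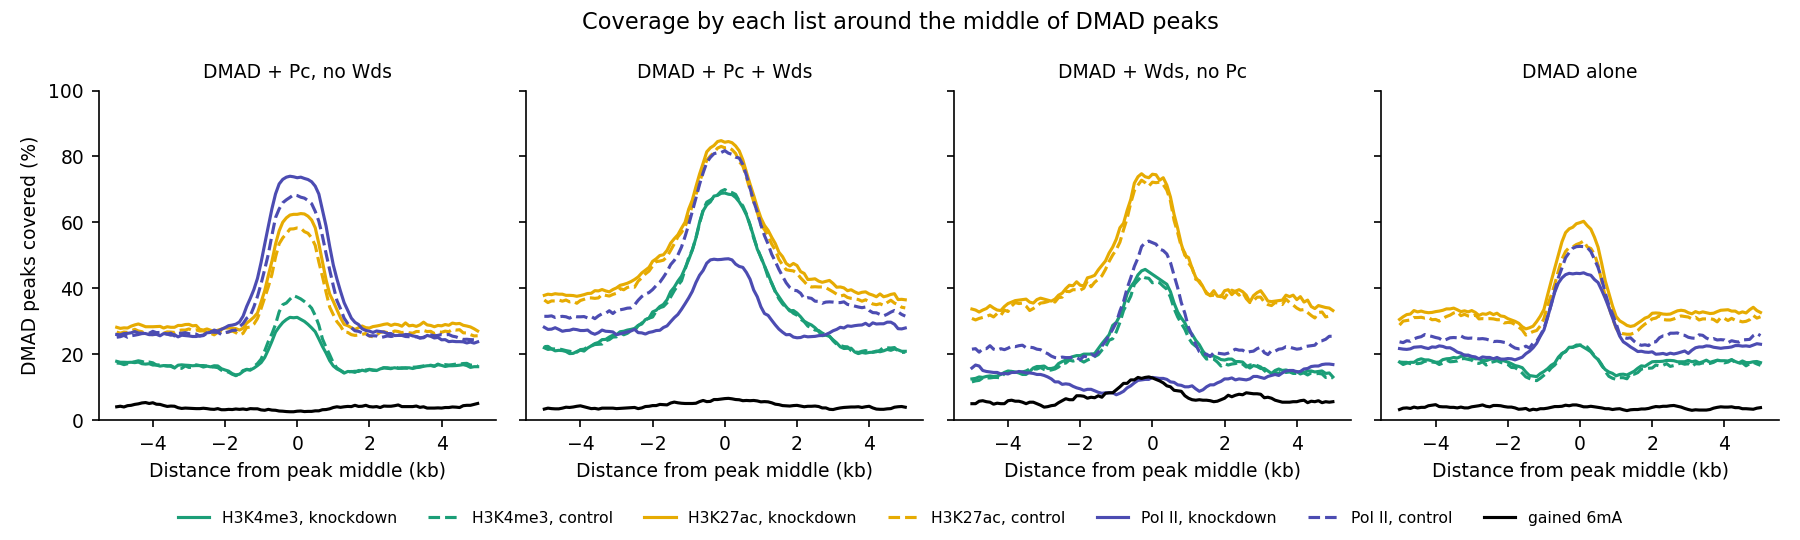
Percent of DMAD peaks of each class covered by each list, against the distance from the peak's middle in kb, with knockdown and control lists drawn separately; there are no error bars because each list is a single list per group. H3K4me3 over the middle of the Pc-without-Wds peaks was at 31.2% in knockdown and 37.3% in control cells, and H3K27ac and Pol II were higher in the knockdown list.

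Between knockdown and control cells, H3K4me3 was kept less often at Pc-without-Wds peaks than at the other DMAD peaks. Peaks with an H3K4me3 region numbered 656 (36.6%) in knockdown cells and 781 (43.6%) in control cells. Of the 781, 641 also overlapped a knockdown region (82.1%, interval 79.2 to 84.6), 140 did not, and 15 others had one in knockdown cells only. The share that kept H3K4me3 was 98.6% at DMAD peaks with Pc and Wds (1127 of 1143), 98.6% at those with Wds only (361 of 366), 93.9% at those with neither (339 of 361) and 92.6% at Pc regions without DMAD (436 of 471). The Pc-without-Wds share was below these, with differences of -16.5 (interval -19.4 to -13.9), -16.6 (-19.5 to -13.5), -11.8 (-15.3 to -7.94) and -10.5 points (-14.0 to -6.77), in that order.

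The share kept by Pc-without-Wds peaks was similar over widths and arms. In 4 bins of width, with edges at 1500, 2000 and 3000 bp, Pc-without-Wds peaks kept H3K4me3 at 83.2%, 82.2%, 80.7% and 82.8%. In each bin this was below the other DMAD classes, which kept 92.2% to 99.7%, and the intervals of those differences lay below 0. Pc regions without DMAD kept 95.4%, 91.4%, 76.7% and 85.2% over the same bins, so that the difference from them was -12.2 points in the narrowest bin (-19.1 to -6.42) and had an interval that includes 0 in the other 3, at -9.18 (-17.0 to 1.92), 4.06 (-8.67 to 22.2) and -2.39 points (-11.7 to 10.3). The pooled difference from Pc regions without DMAD thus rests on narrow regions. Over arms with more than a few peaks the share ran from 76.7% on X to 85.1% on 3R.

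The loss tracked the score of the control H3K4me3 peaks. Among control H3K4me3 regions on Pc-without-Wds peaks, those not kept had a median deposited score of 69.3 and those kept had 3100. In the lowest 25% of the list by score, 47.2% of 288 regions on Pc-without-Wds peaks overlapped a knockdown region (41.5 to 53.0), against 78.2% of those on DMAD peaks with Pc and Wds (72.3 to 83.1), 92.1% with Wds only (84.6 to 96.1), 70.7% with neither (61.1 to 78.8) and 89.2% away from DMAD (86.8 to 91.2). Within that 25% the regions on Pc-without-Wds peaks also scored lower, with a median of 89.1 against 133, 144, 126 and 138 in the same order, so these shares are not matched for score. Above that 25% every region of the list was kept, in all classes. With only the upper 50% of control regions by score, the share kept was 99.6% (451 of 453), against 98.8% to 100% in the other classes; with nearly all regions kept, this setting leaves no room for a difference between classes. The lists also differ in length, with 5496 regions in knockdown and 5923 in control cells; with the same number of highest-scoring regions from each, the share kept was 91.8% (629 of 685), with differences of -7.61 to -5.42 points from the other classes, whose intervals lay below 0. The lost H3K4me3 regions were thus low-scoring ones, and the part of list length and score in the difference was not tested beyond these values.

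Pol II at Pc-without-Wds peaks was kept more often than in any of the other 4 classes. Of 1287 peaks with a control Pol II region, 1055 also had one in knockdown cells (82.0%, interval 79.8 to 84.0), against 63.5% of DMAD peaks with Pc and Wds (786 of 1238), 21.3% with Wds only (89 of 418), 58.1% with neither (406 of 699) and 54.9% of Pc regions without DMAD (399 of 727). The Pc-without-Wds share was higher by 18.5 (15.1 to 21.9), 60.7 (55.96 to 64.9), 23.9 (19.7 to 28.1) and 27.1 points (22.9 to 31.2), in that order. A further 325 of the 504 peaks without control Pol II (64.5%) had a Pol II region in knockdown cells only, against 13.6% of DMAD peaks with Pc and Wds, 4.45% with Wds only, 33.5% with neither and 28.2% of Pc regions without DMAD. In all, 1380 Pc-without-Wds peaks (77.1%) overlapped Pol II in knockdown cells and 1287 (71.9%) in control cells. In the other DMAD classes the share was lower in knockdown cells, such as 15.04% in knockdown and 62.9% in control cells for peaks with Wds only. By length, Pol II covered 70.7% of the bases of Pc-without-Wds peaks in knockdown and 65.9% in control cells. For Pc regions without DMAD it covered 31.2% in knockdown and 18.8% in control cells. More Pol II in the knockdown list was thus not particular to Pc-without-Wds peaks.

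The Pol II lists differed in make-up over the whole genome, which touches these values. The knockdown list held 7353 regions and the control list 6737, with 236 knockdown regions (3.21%) and 733 control regions (10.9%) on the X, and a median score of 83.9 in the knockdown and 124 in the control list. Of knockdown regions 13.2% overlapped Wds, against 34.6% of control regions, while Pc was overlapped by 46.4% of knockdown and 49.3% of control regions. Without the X, 82.4% of Pc-without-Wds peaks kept Pol II, against 63.8%, 22.6%, 61.6% and 56.1% in the other classes, in the order above. With the same number of highest-scoring regions in both lists the share was 80.1%, against 60.7%, 19.4%, 55.8% and 52.4%. The order of the classes was the same in each case; whether the make-up of the knockdown Pol II library sets the difference was not tested.

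Wider peaks kept Pol II more often. Pc-without-Wds peaks kept it at 61.4%, 80.2%, 86.3% and 91.9% in the 4 width bins, and DMAD peaks with Pc and Wds at 27.1%, 45.6%, 62.9% and 76.5%. Within each bin the Pc-without-Wds share was the higher. DMAD peaks with Pc and Wds, the wider class, kept Pol II less often at every width. Among Pc-without-Wds peaks, those with control H3K4me3 kept Pol II at 73.6% and those without it at 91.1%.

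**Figure D3:**
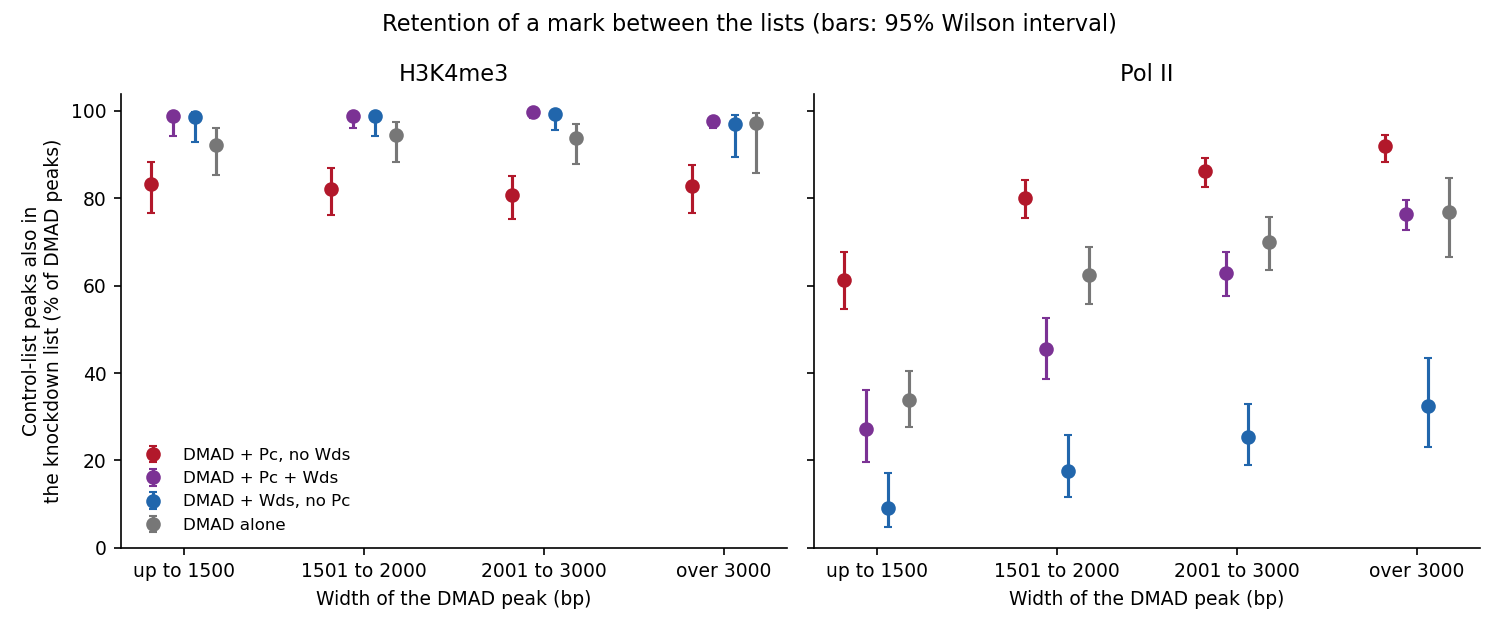
Percent of regions with a control H3K4me3 or Pol II peak that also overlap a knockdown peak, by class and by width bin in bp; error bars are 95% Wilson intervals. The Pc-without-Wds peaks kept H3K4me3 at 80.7% to 83.2% in every bin, and kept Pol II at 61.4% in the narrowest and 91.9% in the widest.

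The peaks that lost H3K4me3 were seldom those that lost Pol II. Of the 140, 102 had Pol II in both lists, 29 in the knockdown list only, 7 in the control list only and 2 in neither. Of the 641 peaks that kept H3K4me3, 391 had Pol II in both lists, 27 in the knockdown list only, 170 in the control list only and 53 in neither. Of the 995 peaks with H3K4me3 in neither list, 556 had Pol II in both lists, 267 in the knockdown list only, 52 in the control list only and 120 in neither. Pol II in the control list only was thus as rare there (5.23%) as where H3K4me3 was lost (5%), so this was not particular to the loss. Of the 271 peaks with none of the 3 marks in control cells, 195 (72.0%) had Pol II in knockdown cells.

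H3K27ac differed less between the lists than H3K4me3 or Pol II. It was present at 68.0% in knockdown and 64.5% in control cells, 1127 of 1156 peaks with it in control cells had it in knockdown cells (97.5%), and 90 had it in knockdown cells only.

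DNA that gained 6mA was tested next. The 6mA lists, as deposited, hold regions of gained 6mA in knockdown cells or knockout brains, and give positions only. The BG3C2 list is made of 5954 windows of 1000 bp, and 155 of the 1791 Pc-without-Wds peaks (8.65%) overlapped one. That was less often than DMAD peaks with Wds, with differences of -9.03 points from those with Pc and Wds (17.7%; interval -11.4 to -6.67) and -16.0 points from those with Wds only (24.7%; -19.6 to -12.6). It differed by -0.67 points from peaks with neither protein (9.33%; -2.81 to 1.38), an interval that includes 0, and by -2.19 points from Pc regions without DMAD (10.8%; -3.79 to -0.5), although these are narrower.

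By length the Pc-without-Wds peaks lay below the genome as a whole. Gained windows covered 2.77% of their bases, against 5.56% for DMAD peaks with Pc and Wds, 11.4% with Wds only, 3.78% with neither, 5.21% for Pc regions without DMAD and 4.95% of the main arms. At the middle base of the peak the share was 2.68%, and 5 kb to the left and right it was 4.02% and 5.03%.

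In brains, where the peaks are those of BG3C2 cells, 125 (6.98%) overlapped a gained region, against 11.3% of DMAD peaks with Pc and Wds, 11.7% with Wds only, 8.02% with neither and 6.07% of Pc regions without DMAD. The Pc-without-Wds share differed by -4.34 points from the first (-6.4 to -2.33) and by -4.75 points from the second (-7.63 to -2.18), and its differences of -1.04 (-3.02 to 0.85) and 0.91 points (-0.45 to 2.38) from the other 2 had intervals that include 0. By length, gained brain regions covered 1.36% of the bases of Pc-without-Wds peaks and 2.13% of the main arms. In the other classes they covered 1.93%, 2.78%, 1.82% and 1.74%, in the same order. A gained region in both BG3C2 and brain was found at 19 peaks, which is 12.3% of the 155 and 15.2% of the 125. Both lie above the shares over all Pc-without-Wds peaks, 6.98% for brain and 8.65% for BG3C2. The part of peak width in this was not tested.

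The widest peak of those 19 lay in the DMAD gene itself. It spans 3L:2786871-2795753 (8883 bp) in CG43444, with H3K4me3 scores of 1870 in knockdown and 1198 in control cells, H3K27ac scores of 1231 in knockdown and 198 in control cells, and Pol II scores of 3100 in knockdown and 2470 in control cells. The CG43444 locus also held 2 DMAD peaks with Pc and Wds. Others of the 19 lay in shn, a zinc finger gene of Dpp signalling, bun, a TSC22-domain transcription factor gene, crp (cropped), a transcription factor gene of tracheal branching, Alh, a PHD finger gene, and Efa6, an exchange factor gene for Arf6. At CG42331 (3R:20605229-20610287) and bun (2L:12536092-12540404), the control H3K4me3 regions scored 57.9 and 108 and no knockdown region overlapped the peak.

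Genes of several developmental pathways carried Pc-without-Wds peaks at a higher share than all genes. At least 1 such peak lay in the locus of 2851 of 14891 genes (19.1%), in 1627 distinct loci, of which 1396 held 1 peak, 184 held 2, 35 held 3, 8 held 4 and 4 held 5. Long loci meet more peaks by their length: the median locus was 3800 bp over all genes and 11320 bp over genes with a peak. The gene lists were written with earlier results of these data known, so their counts are descriptions.

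Of ecdysone response genes, which act in the steroid hormone cascade of moulting and metamorphosis, 13 of 20 (65.0%, interval 43.3 to 81.9) had a Pc-without-Wds peak, with a median locus of 32730 bp. They include EcR and usp, the receptor subunits, br and Eip75B, early response genes, and Hr4, which encodes a nuclear receptor. Of Polycomb group genes 12 of 22 (54.5%) had one, among them Psc and Sce, of complex 1, E(z), the H3K27 methyltransferase, and Pcl and Jarid2, which work with it. Of signalling genes 24 of 46 (52.2%, 38.1 to 65.9) had one, from the ligand genes Dl, hh and dpp to the receptor genes ptc, tkv and Egfr. Of developmental transcription factor genes known as Polycomb targets 30 of 65 (46.2%, 34.6 to 58.2) had one, such as eve, Dll, ey and inv. The peaks were chosen for overlap with Pc, which by itself favours that list. Of neuroblast genes 10 of 24 (41.7%) had such a peak, among them dpn, mira and pros. Median loci were 17210 bp for the signalling, 11290 bp for the transcription factor, 24090 bp for the neuroblast and 7888 bp for the Polycomb group list, all above that of all genes. The part of locus length in these shares was not tested. DMAD peaks with Pc and Wds lay in 55% of ecdysone response, 54.5% of Polycomb group and 41.5% of transcription factor genes, against 20.4% of all genes. High shares in those lists were thus not particular to Pc-without-Wds peaks.

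Other lists lay closer to the share of all genes or below it. Hox genes had a Pc-without-Wds peak at 2 of 8 (Scr and Abd-B), trithorax and COMPASS genes at 6 of 24, axon guidance and adhesion genes at 13 of 55, neuronal and synaptic genes at 9 of 39, immune genes at 8 of 47, cell cycle genes at 4 of 36 and heat shock genes at 2 of 22. For several of these a DMAD peak with both Pc and Wds was more frequent, at 45.8% of trithorax and COMPASS genes, 36.1% of cell cycle genes and 36.4% of heat shock genes. Signalling genes went the other way, with 52.2% for Pc-without-Wds peaks and 28.3% for peaks with Pc and Wds, and neuroblast genes had 41.7% and 16.7%.

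**Figure D4:**
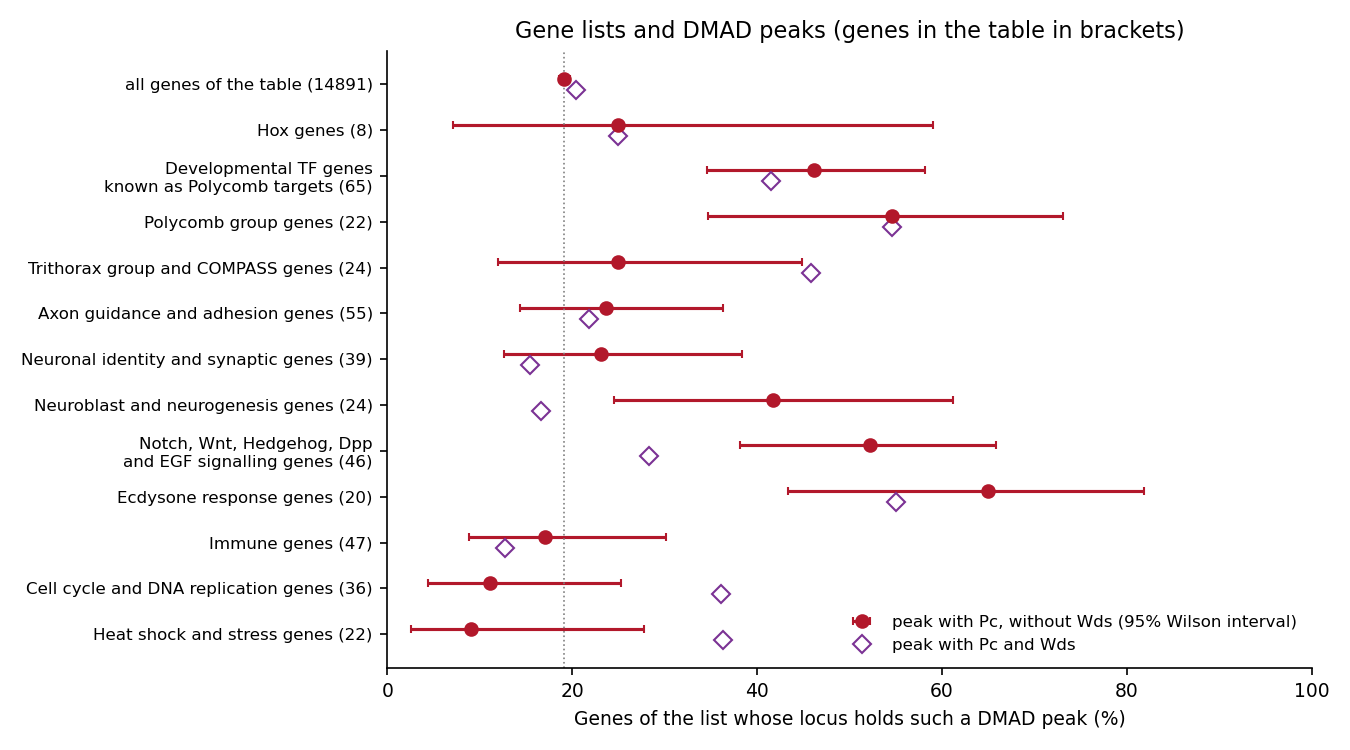
Percent of the genes of each list with a Pc-without-Wds DMAD peak (filled points, with 95% Wilson intervals) and with a DMAD peak that has Pc and Wds (open diamonds); the dotted line marks all genes, at 19.1%. Ecdysone response genes had the highest share of the 12 lists described in the text, at 65.0%, and heat shock genes the lowest, at 9.09%.

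At steroid response genes, 2 of 8 Pc-without-Wds peaks with control H3K4me3 kept it (25%), against 82.0% at peaks in the loci of all genes. The numbers are small, and 3 of the 6 peaks that lost it lay in Hr4. The neuroblast list had the same 25%, at 1 of 4 peaks. In all, the 22 distinct Pc-without-Wds peaks at steroid response genes had H3K4me3 at 2 in knockdown and 8 in control cells and Pol II at 19 in knockdown and 14 in control cells. Hr4 alone held 4 of them, all on the X. Its H3K4me3 regions scored 53.5, 61.8 and 60.2 at 3 peaks in control cells, low in that list, with none in knockdown cells. Its Pol II regions scored 105, 401, 844 and 844 in knockdown cells, against none, 51.2, 208 and 249 in control cells. The equal scores of 844 belong to the adjacent peaks X:1891454-1894396 and X:1894499-1898570 and may come from the same Pol II region. Of the 4 peaks, X:1886845-1888300 and X:1894499-1898570 overlapped gained 6mA in BG3C2. Yet in the authors' deposited table Hr4 was at 0.232 FPKM in both groups. The Hr4 locus overlaps another and also held 4 DMAD peaks with Pc and Wds.

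At developmental transcription factor genes, 34 Pc-without-Wds peaks had H3K4me3 at 19 in knockdown and 24 in control cells. Abd-B, the posterior Hox gene, held a pair of peaks, with H3K4me3 at 3R:12758052-12759079 scoring 122 in knockdown and 152 in control cells. Abd-B was at 0.0349 FPKM in knockdown and 0.0322 FPKM in control cells in the authors' deposited table. At mira, which encodes the adaptor Miranda of dividing neuroblasts, H3K4me3 scored 54.7 in control cells with no knockdown region, and Pol II scored 192 in knockdown and 51.3 in control cells. The mira FPKM was 0.318 in knockdown and 1.55 in control cells in the authors' deposited table (log2 fold change -2.28, q = 1.0, not called).

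Peaks in genes of muscle and fat body had Pol II too. At Mhc, the muscle myosin heavy chain gene, Pol II scored 256 in knockdown and 83.1 in control cells, and H3K4me3 scored 66.5 in control cells only. The 3 peaks in Fbp1 and Lsp2, fat body genes of the larval storage protein system, had Pol II in knockdown cells and none in control cells. In the authors' deposited table Mhc was at 0.105 FPKM in knockdown and 0.112 FPKM in control cells, and Lsp2 at 0.0723 FPKM in knockdown and 0.0628 FPKM in control cells. A Pol II region at a Pc-without-Wds peak thus occurred at genes with little RNA.

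A contrasting pattern was seen at pnt, the ETS-domain effector of EGF receptor signalling. Both of its peaks overlapped gained 6mA in BG3C2. At 3R:19117045-19118562, H3K4me3 scored 3100 in knockdown and 191 in control cells, and at 3R:19118567-19120571 it scored 3100 in knockdown and 2683 in control cells. These peaks are adjacent, and their equal knockdown scores may come from the same H3K4me3 region. The difference between 191 and 3100 at the first peak may then reflect where regions were split. A Pol II region scoring 391 in control cells covered both and was not found in knockdown cells. The pnt FPKM was 68.1 in knockdown and 81.7 in control cells in the authors' deposited table, and it was not called.

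At 4 loci there were 5 Pc-without-Wds peaks each. Msp-300, which encodes a giant actin-binding protein that anchors nuclei, had Pol II at 5 of its peaks in knockdown and 3 in control cells, and H3K4me3 at none. Ten-m, a teneurin gene of cell adhesion, had Pol II at all 5 in both groups, with a score of 100 in knockdown and 1062 in control cells at 3L:22399589-22401628. The jing locus, whose gene encodes a zinc finger protein of the Polycomb group, had Pol II at 3 in knockdown and 2 in control cells, and a locus shared by cher (filamin) and cal1 (a centromere assembly factor) at 4 in knockdown and 3 in control cells. None of these genes was called: Msp-300 was at 22.0 FPKM in knockdown and 21.5 FPKM in control cells, and Ten-m at 162 FPKM in knockdown and 161 FPKM in control cells, in the authors' deposited table.

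Genes with a Pc-without-Wds peak had a median RNA level below the genes of the other DMAD classes and above all genes. The median of these 2851 genes in the authors' deposited table was 8.9 FPKM in knockdown and 9.31 FPKM in control cells. It covers a wide mix, as 38.2% of them were below 1 FPKM in control cells. The control medians were 23.0 FPKM for genes with a Pc and Wds peak, 16.5 with Wds only, 11.4 with neither, 2.4 over all genes and 0.187 for genes with no DMAD peak, from the authors' deposited table. A gene can carry peaks of several classes and overlapping loci share peaks; at loci that overlap no other, the control medians in the authors' deposited table were 15.3 FPKM for genes with a Pc-without-Wds peak, 31.3 with Pc and Wds, 34.7 with Wds only, 22.3 with neither and 0.748 over all genes. In bulk RNA, fewer cells expressing a gene and less RNA per cell cannot be told apart.

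The marks at a peak went with the level of its gene. In the authors' deposited table, genes at Pc-without-Wds peaks with control H3K4me3 had a median of 18 FPKM in knockdown and 18.7 FPKM in control cells, and genes at peaks without it had 0.897 FPKM in knockdown and 0.83 FPKM in control cells. Where H3K4me3 was in the control list only, the medians in the authors' deposited table were 0.241 FPKM in knockdown and 0.232 FPKM in control cells, over 265 genes, against 21.0 FPKM in knockdown and 21.9 FPKM in control cells where it was in both lists. Genes at peaks with Pol II in the knockdown list only were as low, at 0.17 FPKM in knockdown and 0.17 FPKM in control cells in the authors' deposited table, over 581 genes. With Pol II but neither histone mark in control cells they had 0.276 FPKM in knockdown and 0.248 FPKM in control cells in the authors' deposited table. Genes at peaks with Pol II in the control list only had more RNA, at 19.9 FPKM in knockdown and 20.1 FPKM in control cells in the authors' deposited table, over 465 genes. At loci that overlap no other, the control median in the authors' deposited table was 1.47 FPKM where H3K4me3 was in the control list only and 0.174 FPKM where Pol II was in the knockdown list only. Among the genes that were tested, the median log2 fold change in the authors' deposited table was -0.01 where H3K4me3 was in the control list only (119 genes) and -0.02 where Pol II was in the knockdown list only (232 genes), and none was called.

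**Figure D5:**
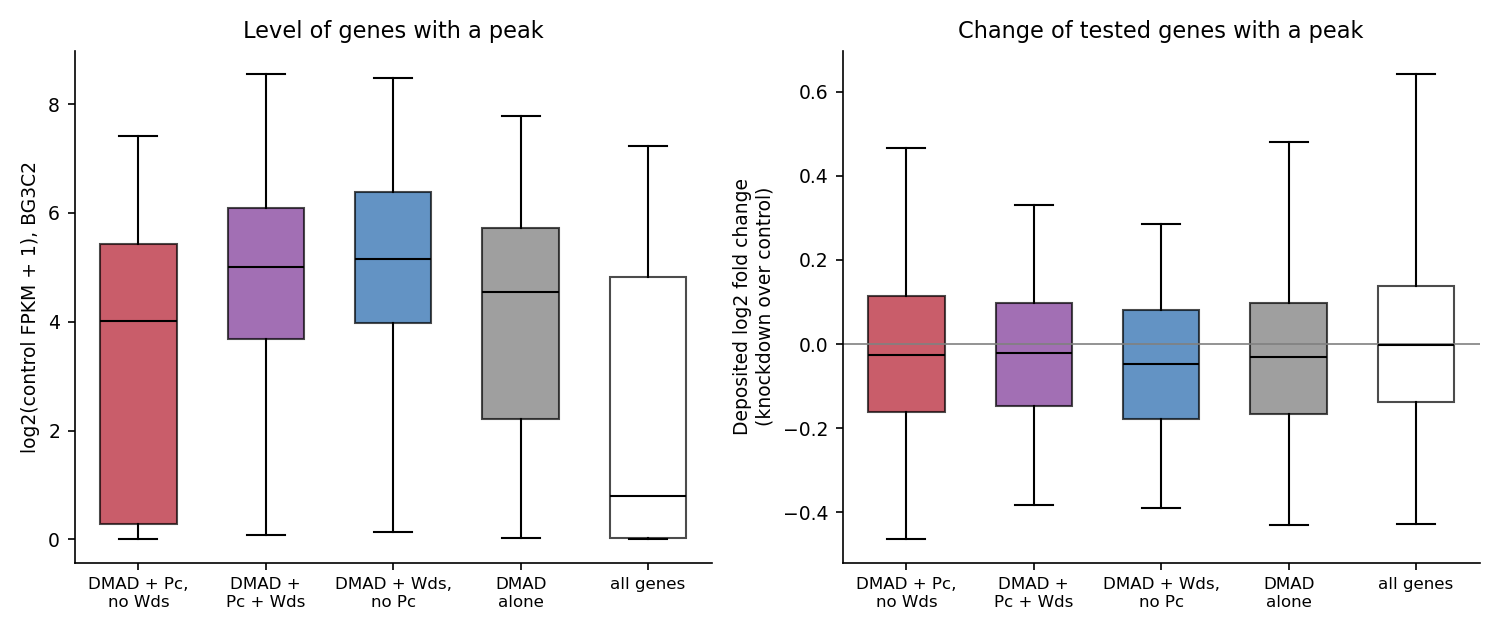
Log2 of control FPKM + 1 (left) and log2 fold change of tested genes, knockdown over control (right), from the authors' deposited table for BG3C2 cells. Genes whose locus overlaps no other are grouped by class of DMAD peak in the locus. Boxes span the quartiles and whiskers run over the 5th to 95th percentiles. Genes with a Pc-without-Wds peak had a control median of 15.3 FPKM, below the 31.3 FPKM of genes with Pc and Wds peaks and above the 0.748 FPKM of all genes.

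By the authors' Cuffdiff call (q below 0.05), none of the 1874 tested genes with a Pc-without-Wds peak changed in BG3C2 cells, against a background of 22 of 8645 tested genes (0.254%; 0.22% higher and 0.0347% lower). At an unadjusted p below 0.05, 18 were higher (0.96%) and 21 lower (1.12%) in knockdown cells, against 1.6% higher and 0.717% lower over all tested genes. The median log2 fold change in the authors' deposited table was -0.03, with 824 genes above 0 and 1046 below, against -0.01 over all genes on the main arms, with 4142 above and 4424 below. Nearest to a call was stv, the BAG-domain co-chaperone gene, at 13.5 FPKM in knockdown and 3.61 FPKM in control cells in the authors' deposited table (log2 fold change 1.90, q = 0.0564). At the stv peak, 3L:13474088-13476347, H3K4me3 scored 257 in control cells with none in knockdown cells, and Pol II scored 167 in knockdown cells with none in control cells.

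In the gene lists, no gene with a Pc-without-Wds peak was called in BG3C2 cells. Axon guidance and adhesion genes with such a peak had a median log2 fold change of -0.44 in the authors' deposited table, with 11 of 12 tested genes below 0 and none called, and those without one had -0.20, with 28 of 32 below 0. Of these, sli, the gene of the secreted guidance cue Slit, was at 66.8 FPKM in knockdown and 98.6 FPKM in control cells in the authors' deposited table (log2 fold change -0.56, q = 1.0). Signalling genes had a median of -0.23 with a peak (13 of 18 below 0) and -0.29 without (16 of 19 below 0) in the authors' deposited table. Egfr, the EGF receptor gene, was at 4.66 FPKM in knockdown and 7.76 FPKM in control cells in the authors' deposited table (log2 fold change -0.74, q = 1.0).

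Immune genes with a Pc-without-Wds peak had a median log2 fold change of 0.23 in the authors' deposited table, with 6 of 7 above 0 and none called, whereas those without one had 0.69, with 28 of 37 above 0 and 11 called. Mtk, which encodes the antimicrobial peptide Metchnikowin, was at 10060 FPKM in knockdown and 4498 FPKM in control cells in the authors' deposited table (log2 fold change 1.16, q = 0.313). Its peak, with no histone mark, had a Pol II region scoring 188 in knockdown cells and none in control cells. A called immune gene, AttB, which encodes an attacin, had a peak within 1 kb of its locus; it was at 463 FPKM in knockdown and 154 FPKM in control cells in the authors' deposited table (log2 fold change 1.58, q = 0.024). AttB has a near-identical copy, so its value is uncertain, and it was named after its values were seen.

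In brains, 12 of 1785 tested genes with a Pc-without-Wds peak were called (0.672%), 5 higher and 7 lower in knockout brains, against a background of 0.762% called, 0.387% higher and 0.375% lower. At an unadjusted p below 0.05 29 were higher (1.62%) and 17 lower (0.952%) in knockout brains, against 1.92% higher and 1.58% lower over all tested genes. The shares of called genes were near the background.

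Among the brain genes that rose, Spn28Dc, a serpin gene, was at 29.2 FPKM in knockout and 6.57 FPKM in control brains in the authors' deposited table (log2 fold change 2.16, q = 0.0103). Rel, the NF-kB gene of the Imd immune pathway, was at 33.2 FPKM in knockout and 13.1 FPKM in control brains in the authors' deposited table (log2 fold change 1.34, q = 0.0248). Hr38, a nuclear receptor gene switched on by neuronal activity, and Lrrk, the fly LRRK kinase gene, had log2 fold changes of 1.15 and 1.04 in the authors' deposited table. CG6040 was the fifth, at 28.4 FPKM in knockout and 15.4 FPKM in control brains in the authors' deposited table, while in BG3C2 cells it was at 8.99 FPKM in knockdown and 15.4 FPKM in control cells (log2 fold change -0.78, q = 0.537).

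Of those that fell, CG3984 was at 5.54 FPKM in knockout and 71.2 FPKM in control brains, and CG6912 at 9.14 FPKM in knockout and 119 FPKM in control brains, in the authors' deposited table. They share a single Pc-without-Wds peak, 3R:10960657-10964941, which overlapped gained 6mA in BG3C2 but not in brain. The gene stv was at 66.1 FPKM in knockout and 384 FPKM in control brains in the authors' deposited table (log2 fold change -2.54), the opposite sign to its log2 fold change of 1.90 in BG3C2 cells, which was not called; the difference was not tested. Teh1, whose product is an auxiliary subunit of the voltage-gated sodium channel, was at 21.6 FPKM in knockout and 100 FPKM in control brains in the authors' deposited table. Its peak, 3R:5690561-5691836, overlapped gained 6mA in BG3C2 but not in brain. Prat2, of purine synthesis, and CG30497 had log2 fold changes of -1.67 and -0.87 in the authors' deposited table. Hsp70Ba, a heat shock gene, is listed at 0 in knockout brains, with 40.6 FPKM in control brains in the authors' deposited table; it is 1 of several near-identical copies, so its value is uncertain.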

How the data were processed

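Build dm3 is named in the submitters' processing notes. These also list MACS 1.4.2, bedtools, Cuffdiff 2.2.1, TopHat2 2.0.8, Bowtie 0.12.9 and CASAVA 1.4, without roles or settings. The authors deposited region lists, with a score per peak for H3K4me3, H3K27ac and Pol II, and Cuffdiff tables with FPKM, log2 fold change, p-value and q-value per gene, per the file headers. Positions are printed counting from 1. No genome of the build was used here, so no sequences are given. Overlaps, shares, Wilson and Newcombe intervals and medians were computed with Python 3.11.15, numpy 2.4.6, pandas 2.3.3 and SciPy 1.17.1, and checked on simulated regions. A gene was assigned the peaks that overlap its locus by 1 bp or more, and a call is status OK with q below 0.05. Named genes were those called with a peak, with the most peaks, with the 5 largest rises and falls, up to 4 per gene list, at the 5 widest peaks and at peaks with gained 6mA in both systems; Dl, hh, dpp, ptc, tkv, EcR, usp, Sce, E(z), Pcl, eve, Dll, ey, inv and AttB were named in addition. The peak class and the gene lists were chosen with earlier results of these data known. Separate cultures or animals are not stated for the libraries, and the spread behind the authors' p-values may be technical. MNase and H3K27me3 samples were not used here.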

Additional observations from a re-analysis of the deposited data

How the results depend on the processing

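No paired analysis was possible because the files hold 1 list or 1 value per group, and for the same reason no replicate could be left out. Of 92 alternatives over 14 results, 59 stayed within the limits set and 33 did not. Limits were the interval of a share, 1.5-fold for a count, width or FPKM median, and the same sign for the median log2 fold change. That fold change stayed below 0 in each of its alternatives. The alternatives cover Pc-without-Wds peaks and their genes only, so they do not check differences between classes. The causes were not tested beyond how each alternative is built. Without peaks that had Wds within 1 kb, the control H3K4me3 share of 43.6% was 41.0% and the H3K27ac share of 64.5% was 61.8%. With peaks within 5 kb merged, the shares were 47.2% for H3K4me3, 74.8% for Pol II (71.9% without merging), 11.2% for gained 6mA in BG3C2 (8.65%) and 9.89% in brain (6.98%), and 86.4% kept Pol II (81.97%). Judged at the middle base, they were 37.3%, 58.3% and 68.1% for H3K4me3, H3K27ac and Pol II, 2.68% and 1.28% for gained 6mA in BG3C2 and brain, 94.3% for gene loci (97.0%), and 78.4% kept Pol II. With 50% of a peak's length required, they were 34.6%, 56.8%, 67.9%, 2.07%, 0.39% and 94.97%, in the same order without the last. With the upper 50% of each list by score they were 25.3%, 43.4% and 40.3%, and 99.6% kept H3K4me3 (82.1%), or 91.8% with lists of equal length. Loci extended by 1 kb held 97.8% of peaks. Called genes in BG3C2 numbered 1 (AttB) with extended loci and 39 at an unadjusted p below 0.05, against 0. In brain they numbered 0 at q below 0.01 and 46 at an unadjusted p below 0.05, against 12. The lowest q of those 12, 0.0103, was shared by several genes, so the stricter limit could pass none and does not grade the calls. The control median of 9.31 FPKM, from the authors' deposited table, was 15.3 at loci that overlap no other, 5.25 for genes with no other DMAD class and 25.9 above 1 FPKM. The shares that kept a mark, and their alternatives, were added after seeing the data. Depth is unknown, so a region absent from a list was not detectable at its threshold rather than shown to be absent.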

Other observations

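Among tested genes with a Pc-without-Wds peak and at least 1 FPKM in both groups, the 5 lowest deposited log2 fold changes in BG3C2 cells, and 3 of the 5 highest, were those of small RNA genes in overlapping loci, and none was called. In the authors' deposited table snmRNA:128, which lies in a locus with 5 such peaks, was at 683 FPKM in knockdown and 62.5 FPKM in control cells (log2 fold change 3.45, q = 1.0), and snoRNA:lola-b had a log2 fold change of 2.29. Among those lower in knockdown cells, mir-4977 had a log2 fold change of -3.29 and 4 small nucleolar RNA genes had values of -2.91 to -2.16 in the authors' deposited table. Their loci overlap those of other genes, so their values are uncertain.

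Pc-without-Wds peaks with control Pol II overlapped gained 6mA in BG3C2 at 122 of 1287 (9.48%), and those without control Pol II at 33 of 504 (6.55%). By marks in control cells, the share was highest where H3K4me3 and Pol II occurred without H3K27ac, at 10 of 54 (18.5%), and 5.9% where none of the 3 marks occurred (16 of 271). Glial genes with such peaks included loco, a regulator of G protein signalling, with 3 peaks that had Pol II in both lists; loco was at 142 FPKM in knockdown and 116 FPKM in control cells in the authors' deposited table.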
